A study of Homo sapiens with 4 samples.

Results

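This set of internal exons lies between 2 very short introns. In the table of skipped exon events that the authors deposited, an exon was taken where it was 51 to 399 nt long, both flanking introns were at most 150 nt, and inclusion and skipping junction reads together averaged at least 20 per library. Each exon was kept once, in the row with the most reads among its rows within these limits. The rule uses lengths and depth only, and found 773 exons of 486 genes among 65601 events. The comparison set, called all tested exons below, was the 39105 distinct exons of the same length range and read minimum, the 773 included. There, 12 of the 773 stand with another row, one with a longer intron.

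The cells were 293T, a human embryonic kidney line. In 2 libraries they had been transfected, by a cationic lipid reagent, with 70 nM of an antisense oligonucleotide (ASO) against SNORD89, a small nucleolar RNA. This ASO is a 5-10-5 MOE gapmer, an oligonucleotide whose DNA centre recruits RNase H and whose modified ends protect it. The other 2 libraries are labelled as having no ASO and no treatment, although the same transfection text stands beside them, and no control ASO is named. Medium was changed after 24 h and RNA was taken at 48 h, then poly(A) selected and sequenced as paired 150 base reads. The table compares a first and a second set of 2 libraries without saying which set received the ASO. The deposited file's name puts the ASO before the untreated cells, which does not tie either to a set of columns. Directions are therefore given as first against second, and libraries are numbered by their place in a cell of the table. The labels call them biological replicates, but do not say whether cultures were separate, so p-values may measure only technical spread.

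In most human genes the spliceosome first recognises an exon as a unit, pairing the splice sites across it, because the introns around it are long. Very short introns can be recognised as units themselves, which is called intron definition, and they tend to be GC-rich. A failure of recognition across an exon typically gives skipping, while a failure across an intron typically leaves that intron in the transcript. The table records skipping only, so retention of these introns was not analysed here. The inclusion level used throughout sets reads on an exon's own junctions against reads that skip it, corrected for the number of junction positions of each form. Percent skipping is the remainder. Versions of one exon can each be set against the same skipping reads, so their levels are not shares of all transcripts. For a member that spans an intron, the level does not show that this intron was retained.

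Complete examples show how compact these units are. Intron, exon and intron follow in transcript direction, with the exon in capitals. MAP4K2, a MAP kinase kinase kinase kinase, is shown because it was among the called exons, RHOT2, a mitochondrial GTPase, because it is rich in such exons, and HES4, a transcriptional repressor of the Hes family, because its exon was skipped often at high depth. The letters are those of GENCODE release 29 transcripts that retain the introns, and the coordinates are the table's in hg19: chr11:64559644-64559747 (minus strand), chr16:718488-718569 (plus strand) and chr1:935072-935167 (minus strand) for the exons.
MAP4K2: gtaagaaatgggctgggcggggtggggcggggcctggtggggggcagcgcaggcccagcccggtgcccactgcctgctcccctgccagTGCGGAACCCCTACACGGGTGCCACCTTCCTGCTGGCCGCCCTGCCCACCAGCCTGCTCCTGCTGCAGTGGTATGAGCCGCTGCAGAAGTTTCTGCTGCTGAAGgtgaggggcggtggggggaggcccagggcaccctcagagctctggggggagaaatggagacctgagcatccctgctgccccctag
RHOT2: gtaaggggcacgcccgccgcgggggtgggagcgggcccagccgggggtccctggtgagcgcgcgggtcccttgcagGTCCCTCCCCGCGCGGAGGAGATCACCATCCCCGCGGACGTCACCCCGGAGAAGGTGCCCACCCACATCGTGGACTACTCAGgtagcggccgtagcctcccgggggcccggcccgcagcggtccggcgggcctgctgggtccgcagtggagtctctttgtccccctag
HES4: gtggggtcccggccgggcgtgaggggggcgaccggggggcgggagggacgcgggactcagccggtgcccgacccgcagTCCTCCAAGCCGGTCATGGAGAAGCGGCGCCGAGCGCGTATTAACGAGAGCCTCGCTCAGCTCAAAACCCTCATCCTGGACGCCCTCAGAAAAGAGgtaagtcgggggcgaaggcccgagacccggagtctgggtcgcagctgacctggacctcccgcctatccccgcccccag

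The MAP4K2 exon of 104 nt has introns of 88 and 85 nt, a unit of 277 bases in all. The RHOT2 exon of 82 nt lies between 76 and 86 nt of intron, and the HES4 exon of 96 nt between introns of 78 and 78 nt. In each unit the introns were richer in G and C than the exon: 76.1% and 69.4% against 64.4% in MAP4K2, 80.3% and 75.6% against 68.3% in RHOT2, and 83.3% and 71.8% against 59.4% in HES4. All 3 exons are annotated as coding.

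High GC content ran through the set, although all the printed introns are richer in G and C than its typical intron. The median GC content of the exons was 61.9%, with quartiles of 56.5% and 66.0%, against 50.8% for all tested exons and 46.2% for the 1952 exons between introns of at least 10000 nt. Of 1392 distinct flanking introns, 594 (42.7%) could be read from transcripts that retain them, so the following describes retained introns and not all of them. Introns of other exons were not read. The median GC content was 64.1%. GT opened 588 of them, GC opened 6, and AG closed all 594. GTGAG, searched on the transcribed strand at the first 5 bases, opened 251 (42.3%), against 75 (12.6%) for GTAAG. The 20 bases before the closing AG held a median of 75% pyrimidines.

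The intron before the exon had a median of 93 nt and a range of 49 to 150 nt, and the intron after it 94 nt and 65 to 150 nt. Of the 1546 introns counted by exon, 1199 (77.6%) were 70 to 120 nt long and 31 (2.01%) were shorter than 70 nt. The exons had a median length of 115 nt, and 429 of them (55.5%) were longer than each of their introns. The shortest intron pair measured 132 nt in all. With both introns added, the median unit was 318 nt long. Many members are alternative versions of one exon: 168 of the 773 shared 75 places with 1 or more others, the 680 places being the more independent count, and 21 members spanned an annotated exon, intron and exon. In 108 cases a flanking exon was itself a member.

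**Figure D1:**
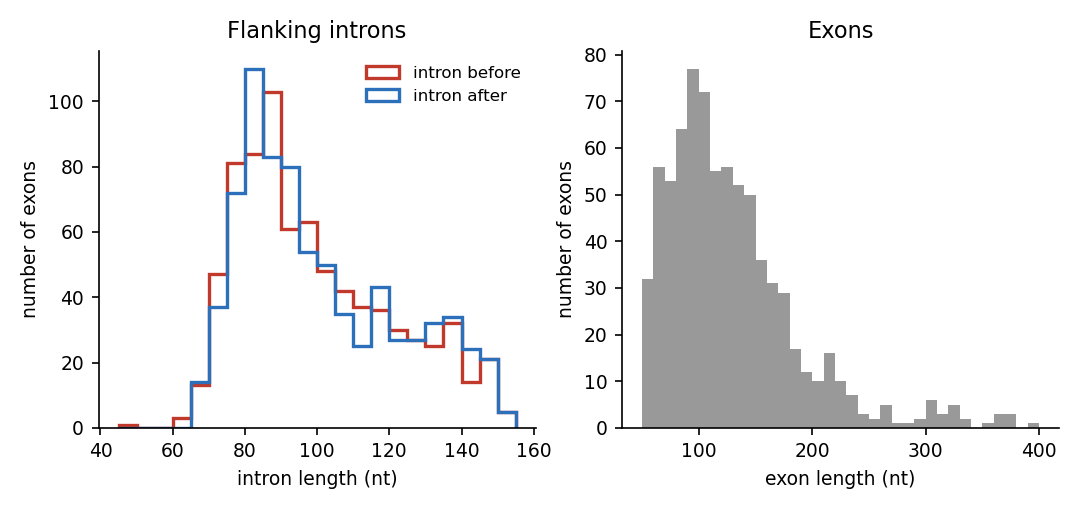
Histograms of the number of exons by the length in nt of the introns before and after them (left, as outlines) and by exon length (right), over the 773 exons. Most introns lie between 70 and 120 nt, the rule ends them at 150 nt, and the exons have a median of 115 nt.

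Library 2 of the second set stood apart over the whole group. It had no skipping read at 440 of the 773 exons (56.9%), against 265 to 272 (34.3% to 35.2%) in the other 3, although it had the most reads over these exons, 1371730. Over all tested exons it had none at 54.0%. The fewest reads over the 773, 1098767, were in library 1 of the first set. The 2 libraries of a set differed by more than 0.1 in inclusion at 36 exons (4.66%) in the first set and 54 (6.99%) in the second, against 6.45% and 11.3% of all tested exons.

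These exons were skipped rarely. Their median percent skipping was 0.721%, against 1.62% over all tested exons, 1.04% over the 4819 with 1 intron of at most 150 nt, and 3.79% over those between introns of at least 10000 nt. The mean inclusion level was above 0.95 for 609 (78.8%), against 66.6% of all tested exons. It was below 0.05 for 14 (1.81%), against 10.9%, and 150 (19.4%) lay between. The table lists only exons with at least 1 skipping read and 1 inclusion read in some library, so exons that were never skipped are outside all of these shares.

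**Figure D2:**
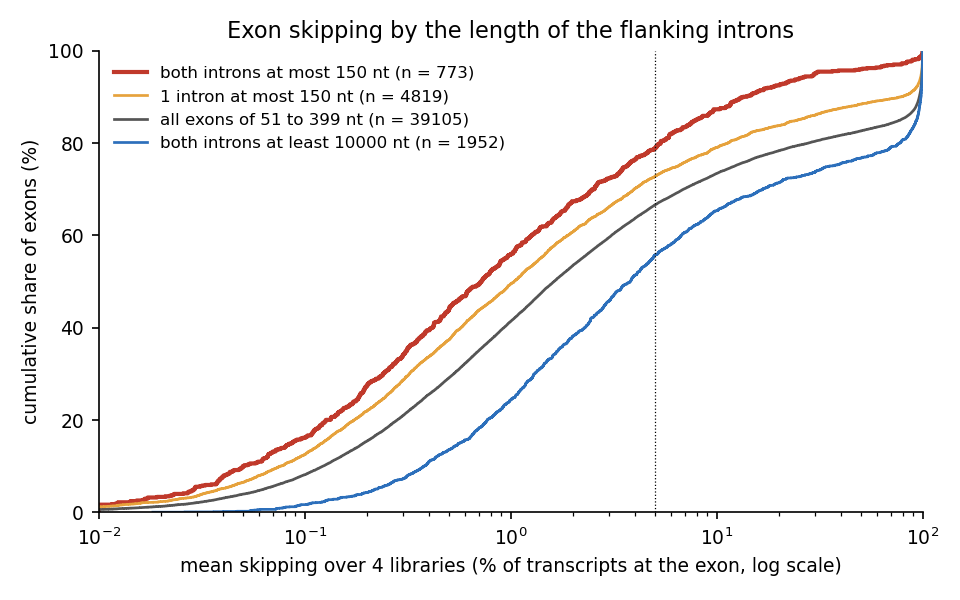
Cumulative share of exons (%) by mean percent skipping over the 4 libraries (log axis, values under 0.01% drawn at the left edge), for exons with both introns or 1 intron of at most 150 nt, for all tested exons, and for those between introns of at least 10000 nt. At the dotted line of 5% skipping the curve of the 773 exons has reached 78.8% and that of all tested exons 66.6%.

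Depth moved with this difference. The short-intron exons had a median of 496 junction reads per library, against 217 for all tested exons and 101 for the long-intron class, and 1 skipping read is a smaller share of a deeper event. Within classes of depth the medians lay closer together. At 1000 reads or more the 228 short-intron exons had a median skipping of 0.192% and all tested exons 0.202%. From 500 to 1000 reads the values were 0.378% and 0.547%, and from 100 to 200 reads 1.19% and 2.03%. From 50 to 100 reads the short-intron exons were the more skipped, at 5.35% against 4.31%. The share with an inclusion level above 0.95 was 93.9% against 84.7% at 1000 reads or more and 79.3% against 65.1% from 100 to 200 reads, but 46.5% against 52.4% from 50 to 100 reads. The share of exons with very low inclusion stayed apart at the highest depth, where 1.75% of the short-intron exons had an inclusion level below 0.05, against 8.82%.

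Within the set, intron length had no steady relation to skipping. The 84 exons whose introns summed to 132 to 160 nt had a median skipping of 0.613%, the 158 at 181 to 200 nt 0.541%, the 192 at 201 to 230 nt 1.03%, and the 149 at 231 to 295 nt 0.73%. Exon GC content fell over the same classes, from 63.7% to 59.6%. At the edge of the rule, the 43 exons whose longer intron was 146 to 150 nt had a median skipping of 0.313%, and the 44 just outside, at 151 to 155 nt, 0.985%.

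Annotation separated the members more clearly. Of the 764 that could be matched to GENCODE by gene and exon spacing, 643 (84.2%) are coding, against 74.9% of all matched exons. A transcript joining the outer exons directly is annotated for 158 (20.7%), against 39.3% of all. Those 158 had a median skipping of 8.13%, and the 606 with no such transcript 0.455%. All 14 exons with an inclusion level below 0.05 belonged to the first kind. Exons outside coding sequence, 108 in all, had a median skipping of 1.43% and coding exons 0.654%. By reading frame, the median among coding exons was 0.615% for the 259 whose length is divisible by 3 and 0.712% for the other 384.

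The deepest members were included almost completely. EEF1A1, which encodes the translation elongation factor that delivers aminoacyl-tRNA, had 0 skipping reads of 118810, 2 of 117910, 2 of 143586 and 0 of 178577 in libraries 1 and 2 of the first and then of the second set. RPL8, a large ribosomal subunit protein, had 1 skipping read over its 4 libraries, in library 2 of the first set (67465 reads). RPS18, a small ribosomal subunit protein, also had a single one, in library 2 of the first set (56262 reads). All 3 genes have processed copies elsewhere in the genome, and how reads with several places were counted is not given in the sources used here. A count of 0 in the EEF1A1 library of 118810 reads allows skipping reads of up to 0.00253% (3 counts of the total). All intervals and limits given here cover counting error only, since reads without molecular identifiers may be copies of one molecule.

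The shortest introns did not go with one level of inclusion. NDOR1, a flavin-dependent oxidoreductase of iron-sulfur cluster assembly, has an exon of 122 nt between 49 and 83 nt, included at 0.884, 0.921, 0.885 and 1.0 in the same order of libraries. LAMA5, a laminin chain, with introns of 67 and 72 nt, was included at 0.993, 0.986, 1.0 and 1.0. CSNK1G2, a casein kinase 1 isoform, with introns of 69 and 70 nt, lost 3 of 1173 reads to skipping in library 1 of the first set and none elsewhere. BOP1, a ribosome biogenesis factor, has introns of 69 and 69 nt around an exon not matched to GENCODE by gene and exon spacing. A failed match does not show that an exon is unannotated. The BOP1 exon was mostly skipped, at inclusion levels of 0.351, 0.193, 0.13 and 0.171, on 16 to 29 reads a library. The sets of BOP1 did not overlap, but the authors' deposited table gives its difference of 0.121 an FDR of 0.685.

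At the other end stood exons that almost all reads skipped. For MRPL55, a mitochondrial ribosomal protein, 2 overlapping exons of 161 and 108 nt carried the same 2, 1, 1 and 2 inclusion reads among 1473, 1633, 2019 and 2783. Inclusion of the 139 nt exon of MSRB1, a methionine sulfoxide reductase, was 0.00364, 0.00243, 0.0 and 0.00414. THOC5, of the THO mRNA export complex, and IFT172, of intraflagellar transport, each have an exon found only in annotated transcripts marked for nonsense-mediated decay (NMD), the pathway that degrades transcripts with early stop codons. THOC5 had 1, 2, 4 and 0 inclusion reads and IFT172 had 2, 0, 0 and 0. The reads count RNA that was present, so low inclusion of such exons need not mean that they were rarely spliced in. The RPS27 exon of 121 nt, also known only from an NMD transcript, was the best measured of the 6. Libraries of the first set included it at 0.0045 (95% Wilson interval 0.00366 to 0.00553) and 0.00518 (0.00432 to 0.0062). Those of the second set did so at 0.00421 (0.00359 to 0.00494) and 0.00311 (0.00256 to 0.00379). The RPS27 levels did not overlap between the sets, but the intervals of library 1 of each did, and the FDR was 1.0 in the authors' deposited table.

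Some well covered exons lay between these ends. The HES4 exon printed above had inclusion levels of 0.774, 0.76, 0.765 and 0.746 on 1565 to 2457 reads, and the sets overlapped. Exons of BAG6, a chaperone for tail-anchored proteins, and FLNA, which crosslinks actin, were both near 0.95. BAG6 gave 0.945, 0.962, 0.941 and 0.938, and FLNA 0.948, 0.958, 0.936 and 0.945. Both were slightly higher in the first set, with FDR values of 0.347 and 0.655 in the authors' deposited table. These 3 exons were chosen for depth after their values were seen.

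Which of these exons differed between the sets was asked with the authors' own test. Of the 773, 10 (1.29%) had an FDR under 0.05 and a difference in inclusion level of at least 0.1 in the authors' deposited table. The same calls covered 2.71% of all 54503 tested events and 2.43% of all tested exons. Inclusion was higher in the first set for 6 and lower for 4, against 1.17% and 1.26% of all tested exons in those directions. The members were also deeper and more often close to full inclusion than all tested exons. Among exons with an inclusion level of 0.05 to 0.95 the share called was 6.67% (10 of 150) against 10.8%, the former at a median of 186 reads and the latter at 92.8. From 200 to 500 reads 3 of 180 were called (1.67%, against 0.466%), 2 of them versions of one VPS28 exon. From 100 to 200 reads 0 of 92 were called (against 1.84%), from 50 to 100 reads 4 of 71 (5.63%, against 4.86%), and from 20 to 50 reads 3 of 46 (6.52%, against 9.11%). From 500 to 1000 reads 0 of 156 were called, against 0.116%. At 1000 reads or more none of the 228 was called, and none of all tested exons was.

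The 2 tests computed here, which take the spread between libraries as their error, called none. The quasi-binomial test, moderated with limma, gave 0 of 773 at a Benjamini-Hochberg adjusted p under 0.05, the lowest being 0.0894, against 0.0307% of all tested exons. At an unadjusted p under 0.05 it gave 50 (6.47%), against 6.82% of all. Limma on log2 ratios also gave 0 after adjustment (lowest adjusted p 0.956), and 33 (4.27%) before it, against 4.67%. That test called none of all tested exons either, and found none of 200 changes of 0.3 planted in simulated data. Its count of 0 therefore cannot tell whether these exons differed. For 156 exons (20.2%, against 23.4%) the sets' inclusion levels were free of overlap. When library 1 of the second set was left out, the quasi-binomial test called 20 of the 773 and 1754 of all events, where it had called 16. An exact permutation test of 2 against 2 libraries cannot go below p = 0.333.

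**Figure D3:**
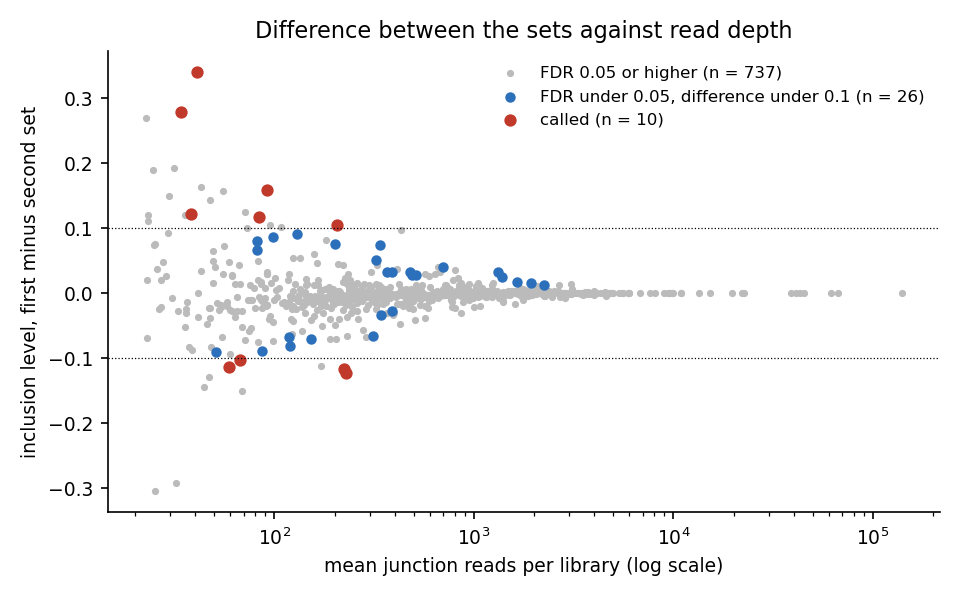
Difference in inclusion level (first minus second set) against mean junction reads per library on a log axis, for the 773 exons, with called exons marked. The spread narrows with depth, and no exon with 1000 reads or more was called. Grey points beyond the dotted lines at 0.1 and -0.1 had an FDR of 0.05 or higher in the authors' deposited table.

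The called exon with the lowest FDR lies in VPS28, a subunit of the ESCRT-I complex that sorts ubiquitinated membrane proteins into endosomal vesicles. It is found in annotated NMD transcripts and occupies chr8:145651258-145651446 on the minus strand. Skipping reads numbered 13 of 167 and 11 of 210 for the first set, but 0 of 211 and 0 of 326 for the second. Inclusion in the first set was thus 0.856 (95% Wilson interval 0.772 to 0.912) and 0.9 (0.833 to 0.943). Both libraries of the second gave 1.0, with lower bounds of 0.965 and 0.977. The sets stood apart beyond their counting intervals. In the authors' deposited table the difference was -0.122 (FDR 7.3e-07), and the quasi-binomial adjusted p (moderated with limma) was 0.0894. A 142 nt version that shares the 3' splice site and the same skipping reads gave -0.117, so the 2 versions are not independent.

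NAPRT1, which makes nicotinic acid mononucleotide in NAD synthesis, was higher in the first set. Its coding exon of 116 nt at chr8:144657400-144657515 (minus strand) had 1 skipping read of 73 and 0 of 93 in the first set, against 10 of 104 and 11 of 98 in the second. Inclusion was 0.976 and 1.0 against 0.841 and 0.816, so the sets did not overlap. Its difference of 0.159 had an FDR of 0.000127 (the authors' deposited table), and the quasi-binomial adjusted p (limma) was 0.482. The 155 nt version of this exon, with the same skipping reads, gave 0.076, at an FDR of 0.00135 there. From reads uncorrected for the length of the forms, the differences were 0.097 in the NAPRT1 exon of 116 nt and -0.065 in the VPS28 exon of 189 nt.

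PRPF39, a factor of the U1 snRNP, the particle that recognises 5' splice sites, holds the called exon with the most skipping. This exon of 100 nt at chr14:45579097-45579196 (plus strand) is known only from NMD transcripts. Libraries of the first set included it at 0.335 and 0.331, those of the second at 0.257 and 0.2, on 172 to 247 reads. All 4 libraries carried both forms in number, and the sets did not overlap, although the Wilson intervals of 0.275 to 0.392 and 0.203 to 0.32 in the libraries nearest to each other did. The difference of 0.105 had its FDR at 0.0423 by the authors' deposited table, and the quasi-binomial adjusted p (limma) was 0.652. When library 2 of the second set, which stood apart, was dropped, the differences were 0.147 in NAPRT1 and 0.076 in PRPF39. In VPS28 they stayed at -0.122 and -0.117, as they had to, since both libraries of the second set gave 1.0. The VPS28 differences were -0.100 and -0.099 without library 1 of the first set, and -0.144 and -0.136 without library 2 of the first set.

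In 5 of the called exons leaving out the library with the most skipping reads brought the difference to between -0.031 and 0.077. DDIT3, the stress-induced transcription factor CHOP, has an exon of 327 nt at chr12:57911052-57911378 (minus strand) that was included at 1.0, 1.0, 0.923 and 0.395, with 13 of 30 reads skipping in library 2 of the second set. Without that library its difference of 0.341 (FDR 0.00171 in the authors' deposited table) was 0.077. SLC26A10, of the SLC26 anion transporter family, was included at 1.0, 0.928, 0.902 and 0.467, and its difference of 0.279 (FDR 0.0298 in that table) was 0.062 without the same library. The 2 overlapping TMEM145 exons shared 11 skipping reads in that library and had 1 elsewhere. Their differences of 0.122 and 0.118 became -0.031 and -0.009 without it. The MAP4K2 exon printed above had 0 of 43, 12 of 73, 2 of 73 and 0 of 80 skipping reads. Its difference of -0.102 turned to 0.023 without library 2 of the first set.

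**Figure D4:**
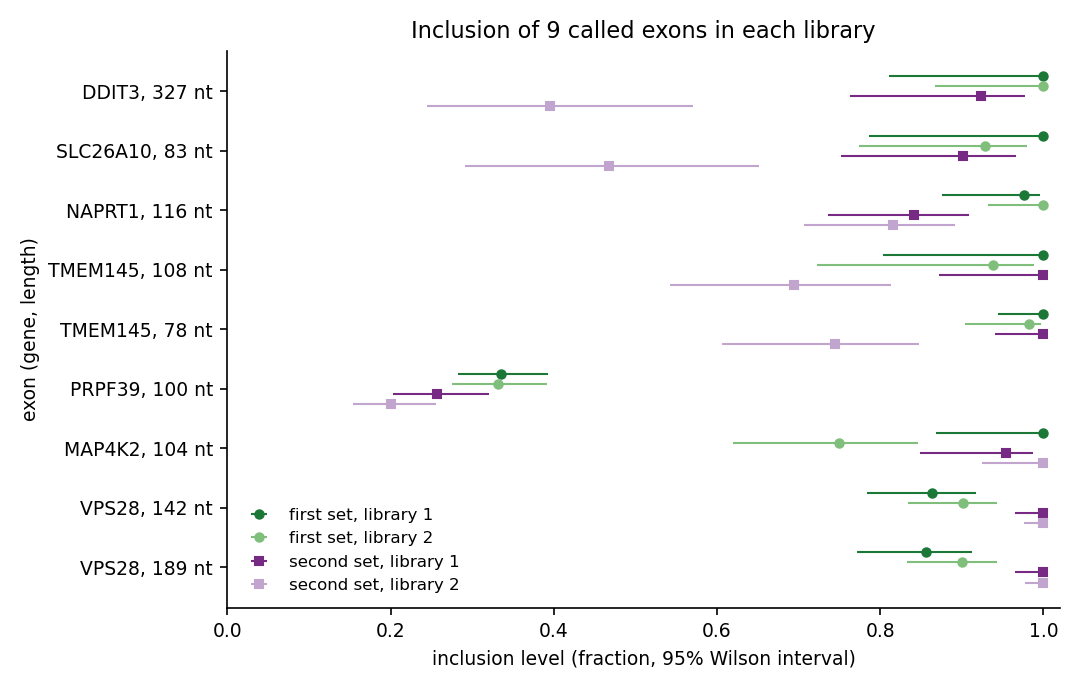
Inclusion level in each of the 4 libraries for 9 of the 10 exons called from the authors' deposited table, with 95% Wilson intervals. In DDIT3, SLC26A10 and both TMEM145 exons library 2 of the second set lies apart from the other 3, and in MAP4K2 library 2 of the first set does, while VPS28 and NAPRT1 separate by set.

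Smaller differences were more numerous among the exons that passed the FDR. An FDR under 0.05 in the authors' deposited table was held by 36 exons (4.66%, against 5.56% of all tested exons), and in 26 of them the difference was under 0.1. These 26 came from 24 genes, lay between 0.013 and 0.091 with a median of 0.0465, and were higher in the first set in 18 and lower in 8. Over all tested exons an FDR under 0.05 was held by 1140 higher and 1035 lower in the first set, and for the 36 members this was 24 and 12. In 18 of the 26 the sets did not overlap, against 20.2% of the 773 and 23.4% of all tested exons at any FDR. The FDR comes from the same 4 libraries, so this lack of overlap is not separate support. The examples that follow were chosen after their values were seen. TMEM147, a membrane protein of the endoplasmic reticulum, has a 358 nt segment annotated only within a transcript that retains introns. Its inclusion levels were 0.991 and 0.991 against 0.979 and 0.976. These levels rest on reads across its outer junctions, which do not show whether the whole segment was retained. AAAS, the nuclear pore protein aladin, gave 0.968 and 0.947 against 0.936 and 0.912 on 1004 to 1661 reads, a difference of 0.033 (FDR 0.0186 in the authors' deposited table) that was 0.021 without library 2 of the second set. The RHOT2 exon printed above gave 0.97 and 0.98 against 0.953 and 0.948, a difference of 0.025 (FDR 0.0141, the authors' deposited table).

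MUTYH, the DNA glycosylase that removes adenine mispaired with oxidised guanine, held 2 such exons. The one of 114 nt gave 1.0 and 0.985 against 0.968 and 0.834, and the one of 74 nt 0.959 and 0.985 against 0.877 and 0.894. Both were higher in the first set, by 0.091 and 0.087, which were 0.024 and 0.095 without library 2 of the second set. DCXR, a xylulose reductase, and UROD, of heme synthesis, also leaned on that library, where inclusion was 0.962 and 0.952. Without it their differences of 0.016 and 0.018 were 0.003 and 0.004. HELZ2, a helicase and nuclear receptor coactivator, was lower in the first set, with 4 of 80 and 4 of 89 skipping reads there, against 0 of 73 and 0 of 105.

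Some genes held several such units. CPSF1, the large subunit of the cleavage and polyadenylation specificity factor, held 11 members, RHOT2 held 8, and VARS (valyl-tRNA synthetase), DVL2 (a Wnt signalling adaptor) and CENPT (a kinetochore protein) held 7 each. Overlapping versions are counted here, and the places were 10 in CPSF1, 6 in RHOT2, 6 in VARS, 4 in DVL2 and 3 in CENPT. Mean inclusion was 0.972 to 0.9996 over CPSF1 and 0.985 to 0.9995 over VARS, and no exon of either had an FDR under 0.05 in the authors' deposited table. RHOT2 was the most uneven, at 0.853 to 0.9997. Its lowest member, a 78 nt version of one exon, was skipped at 13.1%, 14.9%, 10.5% and 20.1%, while its 99 nt version, with the same skipping reads, was skipped at 4.11%, 4.98%, 3.08% and 4.76%.

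In DVL2 6 of the 7 members had skipping reads in both libraries of the first set and in neither of the second. Inclusion levels without overlap between the sets were found at 20.2% of the 773 and 23.4% of all tested exons. At the 92 nt exon these were 4, 4, 0 and 0 reads, or 4.42% and 4.19% skipping in the first set. The remaining DVL2 member, of 136 nt, had 3 skipping reads, all in library 2 of the second set. Several versions share these reads, the counts are 1 to 4 a library, and the lowest FDR in the authors' deposited table was 0.152. In CENPT the 3 versions of one exon shared 14, 12, 10 and 1 skipping reads, so library 2 of the second set was again the one apart.

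**Figure D5:**
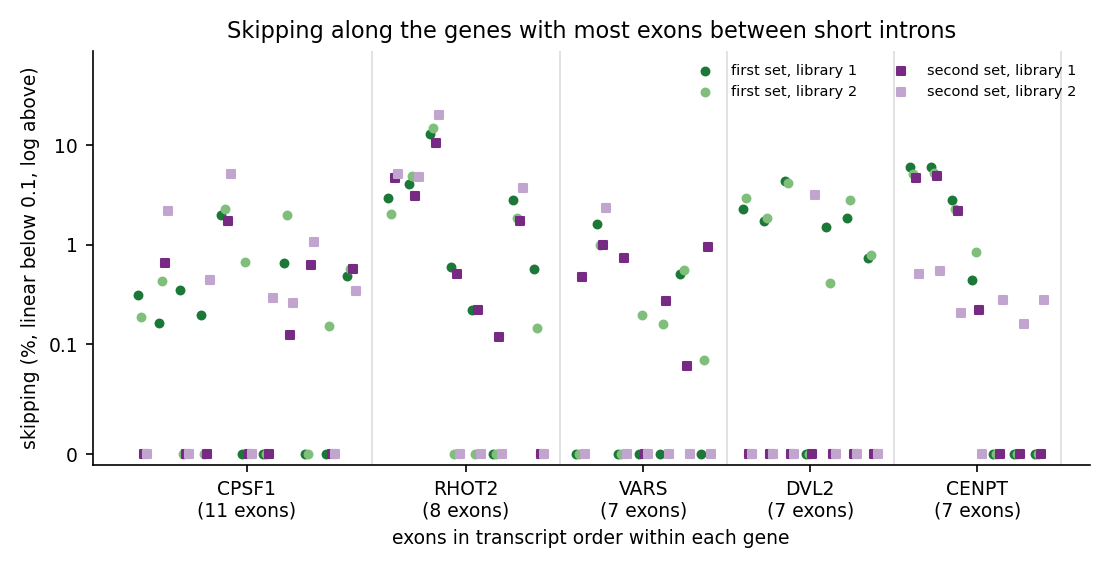
Percent skipping in each library, on an axis that is linear below 0.1% and logarithmic above, for the exons of the 5 genes with the most members. RHOT2 reaches 20.1%, and no exon of the other 4 genes passes 6.14%.

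Genes were grouped by the first letters of their symbols, which can miss members of a family and take in other genes. Counts of calls in these groups were small and are given as a description, beside 1.29% of the 773 exons called. Among 18 exons of ribosomal protein genes none was called and 14 had an inclusion level above 0.95. Of 26 in ubiquitin and proteasome genes none was called and 21 were above 0.95. The kinase and phosphatase group held 17, of which 14 were above 0.95 and none was called. That group's symbols do not cover MAP4K2, a kinase gene whose exon was called. RNA-binding and splicing genes held 14, of which 13 were above 0.95 and the PRPF39 exon was called. Solute carrier genes held 14 with a median skipping of 2.76%, of which 9 were above 0.95 and the SLC26A10 exon was called. Transcription machinery genes held 9, none called. By position, chromosomes 16, 19 and 17 carried 102, 96 and 94 of the 773, which is 13.2%, 12.4% and 12.2%, against 5.54%, 6.6% and 6.9% of all tested exons.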

How the data were processed

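Poly(A) RNA of 4 libraries of 293T cells was sequenced, and the authors deposited one rMATS table of skipped exon events. The submitters' processing notes name cutadapt, STAR and hg19; versions, the rMATS version and its annotation are not given in the sources used here. Per the file headers, each cell holds the junction read counts or the inclusion levels (fractions from 0 to 1) of a set's 2 libraries, separated by commas. The authors also deposited p-values with an FDR, and the difference in inclusion level, a signed score. Inclusion levels recomputed from the counts differed by at most 0.0005 from those deposited.

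Computed here were the set of exons, its counts and medians, 95% Wilson intervals, and 2 tests over all 54503 events with a mean of at least 20 reads: a quasi-binomial model with dispersion moderated by limma 3.58.1 (R 4.3.3), and limma on log2 ratios of the forms' reads (pseudocount 0.5), both adjusted by Benjamini-Hochberg. On simulated data, 200 of 54503 events changed by 0.3, the quasi-binomial test found 115 with 6 false calls under binomial noise and 74 with 2 false under the measured scatter, and limma 0 in both. The changed events were all of intermediate inclusion, so these rates do not carry over to exons near full inclusion or to smaller differences. Exons were matched to GENCODE 29 (GRCh38) by gene and exon spacing, and no coordinate was converted. Named with values were the called exons (1 is not reported here), the 6 least included, the 3 with the shortest introns (4 by a tie), the 3 deepest and the genes with the most members (5 by a tie). The members and lists were chosen with earlier results of these data known. No column of other samples was present.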

Additional observations from a re-analysis of the deposited data

How the results depend on the processing

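The 10 calls from the authors' deposited table became 23 at a difference of at least 0.05, 2 at 0.2, 4 at an FDR under 0.01, 4 with introns of at most 100 nt (311 exons) and 20 with at most 200 nt (1282 exons). Other planned settings gave 7 to 12, and each place counted once, a setting chosen after seeing the data, gave 8. With 1 library left out, the difference recomputed and the FDR as deposited, 3 to 10 of the 10 stayed called (3 without library 2 of the second set, 6 without library 1 of the first). The quasi-binomial count of 0 stayed 0 except without library 1 of the second set, when it was 20; the leave-one-out range was 0 to 20, and over all events 16 became 1754. The limma count was 0 with a pseudocount of 1 and with at least 50 reads. The share above an inclusion level of 0.95, 78.8%, was 81.0% at 50 reads or more, 80.7% with introns of at most 100 nt, 85.4% from uncorrected reads, and 78.5% to 79.7% with a library left out. Median skipping of 0.721% was 0.395% from uncorrected reads and 0.612% to 0.77% with a library left out. With a library left out, differences ran from -0.228 to 0.023 in MAP4K2 (0.023 without library 2 of the first set), and in TMEM145 from -0.031 to 0.275 and from -0.009 to 0.246 (the negative values without library 2 of the second), changing sign. The cause was not tested. No called exon had another row in the table. No paired analysis was possible because the table's columns carry no replicate numbers.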
